A study of Rattus norvegicus with 6 samples.

Results

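Families 1, 2 and 3 of the cytochrome P450 enzymes were represented by 34 probe sets for 32 genes, out of 31099 probe sets on each array. A probe set belonged here if the platform annotation gave it exactly 1 gene symbol that begins with Cyp, the family digit 1, 2 or 3, a single lower-case letter and a number, so that other P450 families were left out. Cytochrome P450 enzymes are heme proteins of the endoplasmic reticulum that use electrons from P450 reductase to insert an oxygen atom into their substrates. These families oxidise drugs, plant chemicals, alcohols, steroids and fatty acids, and the liver is their main site. Some paralogs among them are near-identical, and a probe set may bind more than the gene it is annotated to.

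Liver RNA was measured on 1-colour arrays from 3 samples of the probiotic group and 3 of the high-fat group. Rats of both groups were made hypercholesterolemic by 30 d on a fat-rich diet and stayed on it for 30 d more. In that second period the probiotic group was given Lactobacillus casei Zhang, a lactic acid bacterium, in 1 ml of saline a day into the stomach, and the high-fat group, the control, was given 1 ml of saline a day. Strain, sex and age are not given in the labels used here. The samples are not stated to come from separate rats. The p-values set each difference against the spread between these samples, which may be technical, and may not extend to other rats. All levels below are quantile normalized signals on the scale log2(intensity + 16), all differences are probiotic minus high-fat on that scale, and ± is the SD over 3 samples. Folds on this scale understate the change of dim probe sets.

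The arrays had median signals of 90.05 to 146.9, and correlations of 0.885 to 0.959 between groups and 0.916 to 0.953 within groups. Of 7 hepatocyte markers measured, 6, among them Alb and Ttr, lay above the 99th percentile of signal. For Actb, the log2 signal at the 3' end minus that at the 5' end, a gap that is larger in shorter RNA, was 2.50 ± 0.459 in probiotic and 1.84 ± 0.213 in high-fat samples (exact two-sided permutation p = 0.1, the smallest that 3 against 3 allow). Markers of Kupffer cells had lower values in the probiotic group for 10 of 10 genes, with a summed linear signal of 13244 to 16605 in probiotic and 16511 to 21791 in high-fat samples. Blood and erythroid markers had higher values for 5 of 5 genes, with summed signals of 32055 to 59878 in probiotic and 18840 to 28832 in high-fat samples. None of these Kupffer cell and blood markers was at 0, and their part in the P450 values was not tested. In whole liver, fewer cells of a type and less RNA per cell cannot be told apart.

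Many of these P450s were among the strongest signals on the array. Of the 34 probe sets, 13 lay at or above the 99th percentile of signal and 19 at or above the 95th, while 6 lay below the median. Cyp2e1, which oxidises ethanol, acetone and other small molecules, was the brightest, at rank 18 among all probe sets. Next in order came Cyp2c13, Cyp2c22, Cyp2c6v1, Cyp2c7, Cyp2c11, Cyp2d2, Cyp3a23-3a1 and Cyp3a2, at ranks 49, 56, 61, 70, 71, 73, 81 and 85. Probes differ in how well they bind, so this is an order of signals, not of transcript amounts. The mean levels from Cyp2c13 down to Cyp3a2 spanned 15.55 to 15.23, and each differed from the next in that order by less than the SD of either over the 6 samples.

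**Figure D1:**
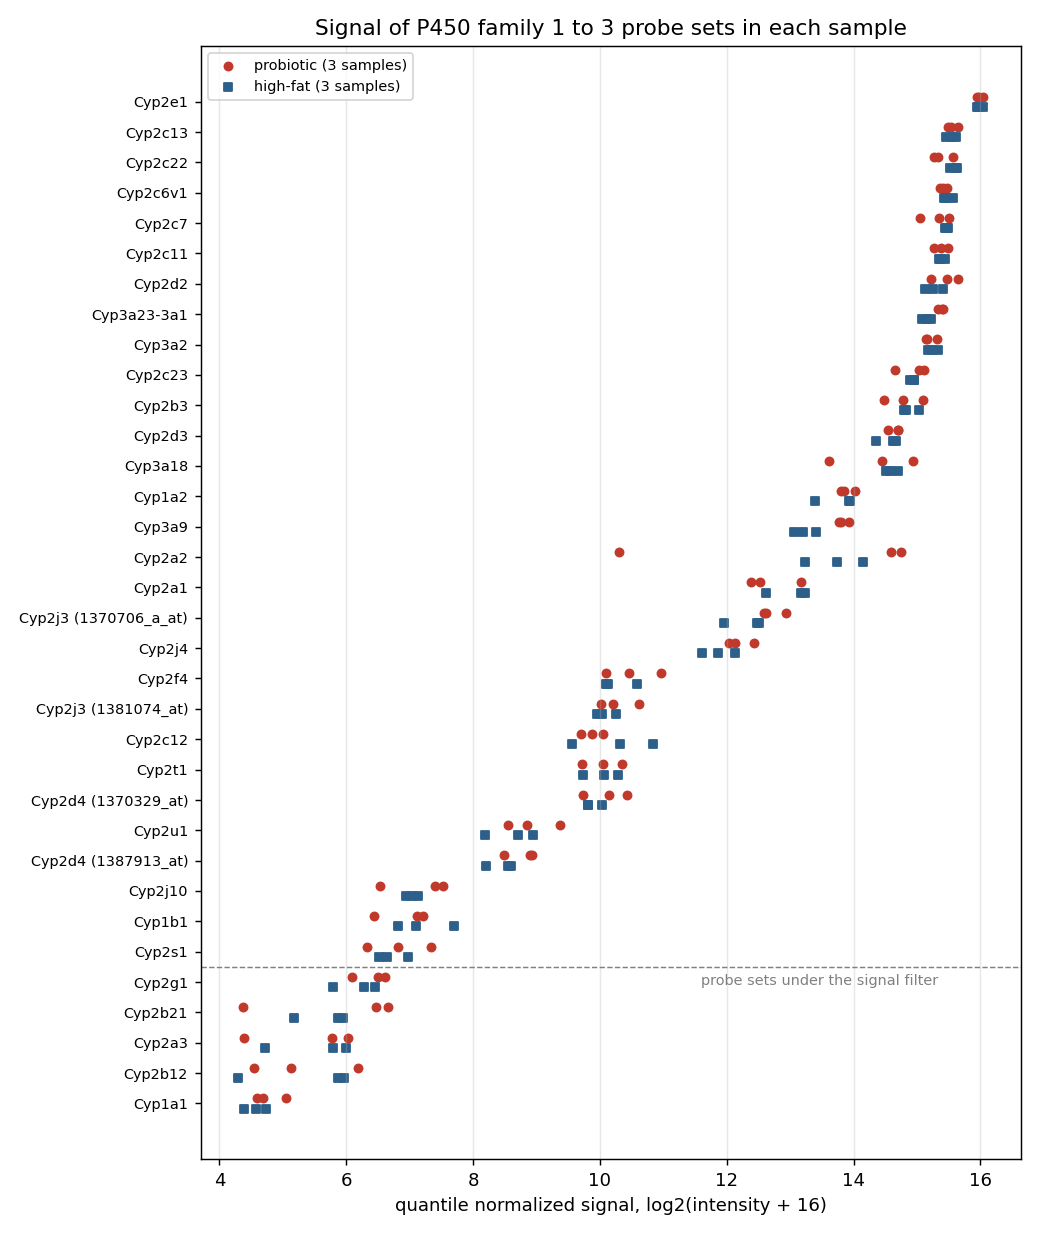
Signal of each of the 34 probe sets in each sample (x axis, log2(intensity + 16)), brightest at the top, with probiotic samples as red circles above high-fat samples as blue squares. The 13 brightest probe sets lie at or above 13.61 in every sample, and the isolated red circle at 10.31 is Cyp2a2 in probiotic sample 1.

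Setting probiotic against high-fat samples asked whether giving the bacterium on top of the diet went with other levels of these enzymes. No gene of families 1 to 3 passed the test. Most differences were small beside the spread between samples, Cyp3a9 had a 1.52-fold higher value in the probiotic group, and Cyp2a2 was far lower in 1 probiotic sample than in the other 5 samples. The signal filter, a mean at or above the 40th percentile, left 29 probe sets for 27 genes. With limma across all 18625 probe sets that passed the filter, 0 of the 29 had a Benjamini-Hochberg adjusted p under 0.05, against 4 of all probe sets (0.0215%), each of them lower. At an unadjusted limma p under 0.05 there was 1 of 29, Cyp3a9, against a background of 6.85% (2.99% higher and 3.86% lower).

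Values of all 3 probiotic samples lay above all 3 high-fat samples for 3 of the 29 probe sets and below them for 0, while the background was 6.02% above and 6.7% below. Taking the brightest probe set of each gene, 16 of 27 genes had higher and 11 lower values in the probiotic group. Counted over probe sets, 18 of 29 had higher values, against 50.5% of all. The median difference over genes was 0.014, next to 0.011 over all 10573 genes tested. With each array's median aligned in place of quantile normalization, or with no normalization, 13 were higher and 14 lower, with medians of -0.049 and -0.097.

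The 95% intervals give how large the differences could be under the main processing, and their widths depended on it. The SE of Cyp2e1 was 0.10 here, 0.23 with medians aligned, 0.25 without normalization and 0.086 with the filter at the 60th percentile. The interval lay within 1.5-fold in either direction for 14 of 29 probe sets, where 12.2% of all probe sets reached this. It lay within 2-fold for 25 of 29, against 51.8%. The 4 that did not were Cyp2a2, Cyp2c12, Cyp1b1 and Cyp2s1. Among bright probe sets the shares were closer: at or above the 95th percentile of signal, 13 of 19 P450 probe sets (68.4%) and 54.0% of all 1553 had intervals within 1.5-fold. Whether the brightest probe sets were near saturation was not tested.

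**Figure D2:**
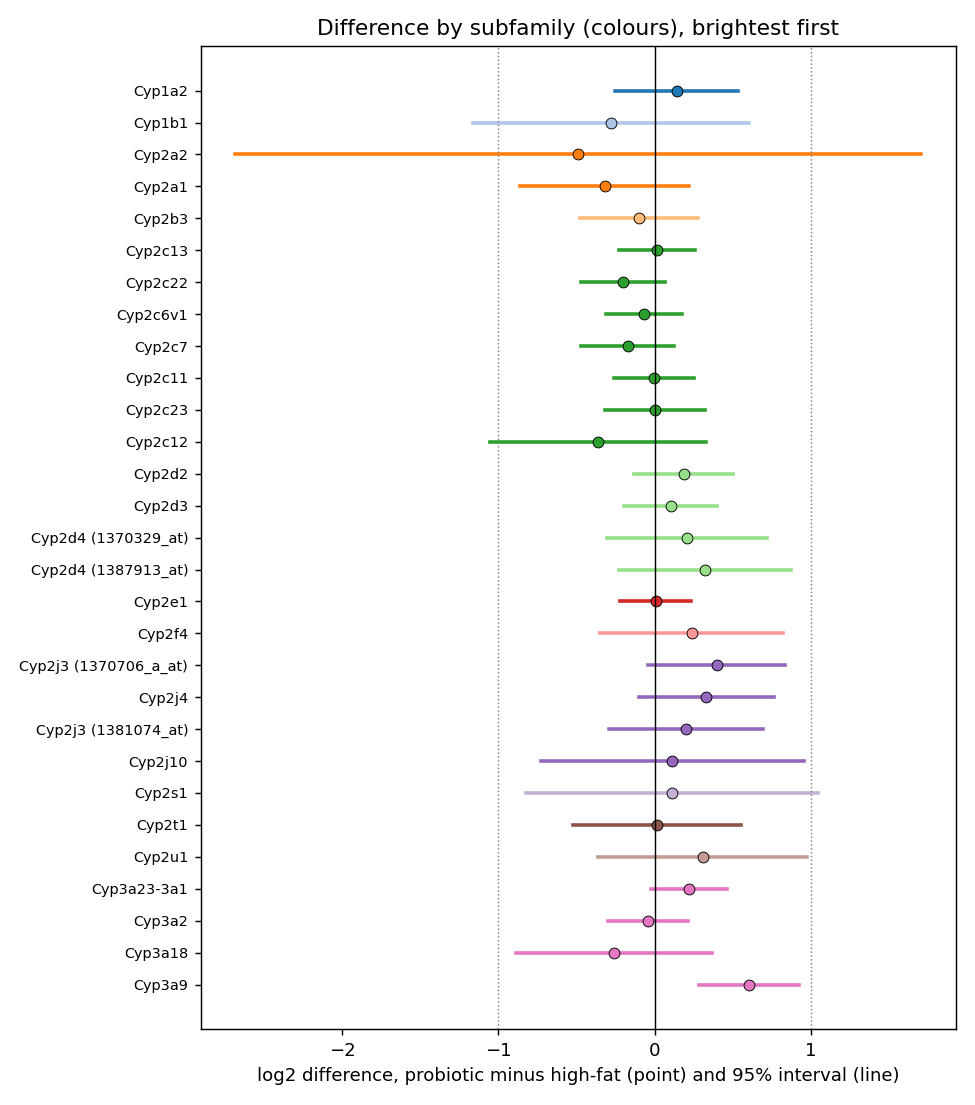
Log2 difference, probiotic minus high-fat (points), with its 95% interval (lines) for the 29 probe sets tested, coloured by subfamily and brightest first within each. Cyp3a9 is the probe set whose interval, 0.28 to 0.92, leaves out 0, and Cyp2a2 has the widest interval, -2.68 to 1.70.

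The Cyp3a subfamily oxidises steroids, bile acids and many drugs, and in rat liver its inducible members answer to the pregnane X receptor, PXR. Its 4 measured genes lie on chromosome 12. RefSeq (GRCr8) gives the bases from 250 before to 50 after each start site, shown here because PXR is known to bind the rat Cyp3a23 promoter through a direct repeat of a nuclear receptor half-site. Capitals mark AGGTCA and AGTTCA, searched on both strands, so that AGTTCA on the other strand reads TGAACT. Each is written 5′ to 3′ on its gene's strand: Cyp3a9 from chr12:21960111-21960410 (minus strand), Cyp3a23-3a1 from chr12:14398754-14399053 (minus strand), Cyp3a2 from chr12:14343808-14344107 (minus strand) and Cyp3a18 from chr12:13994062-13994361 (plus strand).
Cyp3a9: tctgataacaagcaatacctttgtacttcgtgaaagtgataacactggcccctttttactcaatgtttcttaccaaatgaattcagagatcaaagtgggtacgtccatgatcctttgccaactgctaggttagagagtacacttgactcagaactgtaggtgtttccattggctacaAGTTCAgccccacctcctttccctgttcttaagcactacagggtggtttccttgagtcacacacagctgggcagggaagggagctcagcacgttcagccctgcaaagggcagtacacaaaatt
Cyp3a23-3a1: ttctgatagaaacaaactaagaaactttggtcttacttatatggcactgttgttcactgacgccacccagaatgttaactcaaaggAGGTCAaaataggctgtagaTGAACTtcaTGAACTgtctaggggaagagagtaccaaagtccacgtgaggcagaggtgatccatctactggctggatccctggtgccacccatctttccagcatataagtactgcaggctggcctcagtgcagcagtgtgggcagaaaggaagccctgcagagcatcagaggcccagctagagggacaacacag
Cyp3a2: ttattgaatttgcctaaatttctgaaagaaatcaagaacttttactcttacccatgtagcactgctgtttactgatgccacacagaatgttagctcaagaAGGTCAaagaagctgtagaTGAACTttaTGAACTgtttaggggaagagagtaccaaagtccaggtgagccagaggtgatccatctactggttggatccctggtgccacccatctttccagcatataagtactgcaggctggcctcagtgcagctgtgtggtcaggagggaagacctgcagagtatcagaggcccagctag
Cyp3a18: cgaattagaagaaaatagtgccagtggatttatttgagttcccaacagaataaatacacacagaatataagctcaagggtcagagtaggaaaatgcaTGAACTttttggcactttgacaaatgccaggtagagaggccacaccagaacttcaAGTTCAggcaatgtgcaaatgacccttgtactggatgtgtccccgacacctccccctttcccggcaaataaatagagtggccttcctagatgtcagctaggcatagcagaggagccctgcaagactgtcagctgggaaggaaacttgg
The direct repeat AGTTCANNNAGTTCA, searched on both strands, was present in Cyp3a23-3a1 and Cyp3a2, and in no other of 27457 rat promoters of this length (0.00728%). Its half-sites overlap the matches to AGTTCA alone, which was in all 4 Cyp3a promoters and in 14.4% of all promoters. AGGTCA was in Cyp3a23-3a1 and Cyp3a2 and in 15.7% of all. The promoters of Cyp3a23-3a1 and Cyp3a2 were identical at 254 of 300 bases (84.7%), and the other pairs at 58.7% to 61.3%. A match describes these letters and is neither a site nor a cause.

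Values of the 4 Cyp3a genes went different ways. Cyp3a9, a steroid hydroxylase that is higher in female than in male rats, had levels of 13.80, 13.77 and 13.92 in the probiotic samples, against 13.41, 13.21 and 13.06 in the high-fat samples. The groups did not overlap. The difference was 0.60 (SE 0.14), or 1.52-fold higher (95% interval 1.22 to 1.9), with an unadjusted limma p of 0.00202 and an adjusted p of 0.726. Under 17 other settings its difference lay between 0.52 and 0.70 and its adjusted limma p was at least 0.307.

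Cyp3a23-3a1, a classical PXR target inducible by synthetic steroids, had levels of 15.33, 15.39 and 15.40 in the probiotic samples and 15.23, 15.08 and 15.16 in the high-fat samples. Here too the groups did not overlap, by a small step. Its difference was 0.22 (SE 0.11), with an adjusted limma p of 0.732, and without normalization it was 0.078. Cyp3a2, a steroid hydroxylase of adult male rats, had levels of 15.16, 15.15 and 15.32 in the probiotic samples and 15.18, 15.33 and 15.24 in the high-fat samples. The groups overlapped, with a difference of -0.041 (SE 0.11) and a 95% interval from 0.815-fold to 1.16-fold. Cyp3a18, another steroid hydroxylase, had levels of 14.45, 13.61 and 14.94 in the probiotic samples, against 14.51, 14.70 and 14.58 in the high-fat samples. Probiotic sample 2 was the lowest and probiotic sample 3 the highest of the 6, and the difference was -0.26 (SE 0.28). It depended on them: it was 0.10 without probiotic sample 2, -0.56 without probiotic sample 3 and 0.41 when the Actb gap entered the model. Over the 4 genes the median was 0.089, with 2 higher and 2 lower, and it was -0.041 without normalization.

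**Figure D3:**
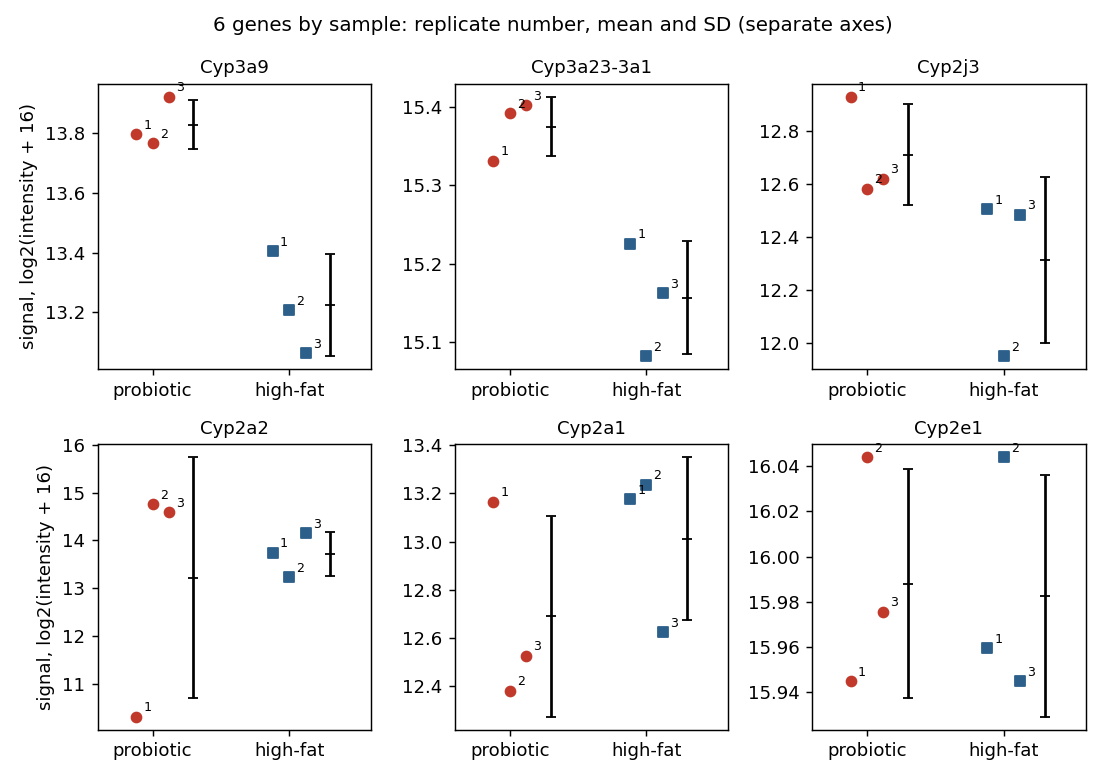
Levels by sample for 6 genes (y axis, log2(intensity + 16), a separate axis for each gene), with probiotic samples on the left and high-fat samples on the right, numbered by replicate, and the mean and SD beside each group. In Cyp3a9, Cyp3a23-3a1 and Cyp2j3 the probiotic samples lie above the high-fat ones, and in Cyp2a2 probiotic sample 1 lies at 10.31, below the other 5.

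Cyp2j enzymes make epoxides from arachidonic acid. Their 3 measured genes, all on chromosome 5, had higher values in the probiotic group, with a median difference of 0.33 and a range of 0.11 to 0.40, and none passed the test. Of these, Cyp2j10 was dim, at percentile 53.3 of signal, with a difference of 0.11 (SE 0.37). In a fit that weights the arrays, 2 of the 3 genes had higher and 1 lower values. Cyp2j3 had levels of 12.93, 12.58 and 12.62 in the probiotic samples, against 12.51, 11.95 and 12.48 in the high-fat samples. The groups did not overlap, but the step between them was smaller than the SD of either. The difference was 0.40 (SE 0.19), with an adjusted limma p of 0.732, and 0.21 without high-fat sample 2, the lowest. A dimmer Cyp2j3 probe set, whose groups overlapped, had a difference of 0.20 (SE 0.22). Cyp2j4 had levels of 12.04, 12.43 and 12.13 in the probiotic samples and 11.61, 12.14 and 11.86 in the high-fat samples, which overlapped. Its difference was 0.33 (SE 0.19), and 0.20 without high-fat sample 1 and 0.22 without probiotic sample 2.

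Cyp2d genes oxidise many basic drugs, and their 3 measured members lie on chromosome 7. All 3 had higher values in the probiotic group, with a median difference of 0.18 and a range of 0.10 to 0.21, and none passed the test. Cyp2d2, the rat debrisoquine hydroxylase, had levels of 15.65, 15.23 and 15.47 in the probiotic samples, against 15.41, 15.12 and 15.25 in the high-fat samples. The groups overlapped, and the difference was 0.18 (SE 0.14), with 0.086 if probiotic sample 1 was left out, 0.30 if probiotic sample 2 was and 0.11 if high-fat sample 2 was. The subfamily median was 0.074 without normalization and 0.075 without probiotic sample 1. A probe set annotated to 2 Cyp2d symbols, and so not among the 34, had 15.20, 14.69 and 14.67 in the probiotic samples and 15.07, 14.44 and 14.70 in the high-fat samples, which overlapped, and a difference of 0.12 (SE 0.20).

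The Cyp2c subfamily hydroxylates steroids, fatty acids and retinoids, and it had the most members here. All 7 of its genes passed the filter, 2 with higher and 5 with lower values, with a median difference of -0.068. With medians aligned or with no normalization all 7 had lower values, with medians of -0.19 and -0.23. Cyp2c11, the main male-specific form in rats, whose level is set by the pulses of growth hormone, had 15.38, 15.26 and 15.49 in the probiotic samples and 15.36, 15.44 and 15.35 in the high-fat samples. The groups overlapped, with a difference of -0.0043 (SE 0.11) and a 95% interval from 0.837-fold to 1.19-fold. Cyp2c12, the female-specific form in rats, had 10.05, 9.87 and 9.70 in the probiotic samples, against 9.56, 10.84 and 10.31 in the high-fat samples. High-fat samples held both its lowest and its highest value, and the difference was -0.36 (SE 0.31). It was -0.70 without high-fat sample 1, the lowest, and -0.062 without high-fat sample 2, the highest.

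Cyp2c13, another male-predominant form, had 15.64, 15.49 and 15.54 in the probiotic samples and 15.55, 15.62 and 15.46 in the high-fat samples, with a difference of 0.015 (SE 0.11). The groups overlapped. Cyp2c7, which is higher in female rats, had levels of 15.50, 15.34 and 15.05 in the probiotic samples, against 15.49, 15.45 and 15.48 in the high-fat samples. Probiotic sample 3 was the lowest, and the difference was -0.17 (SE 0.13), with -0.054 without that sample and -0.28 without probiotic sample 1. Cyp2c22, a retinoic acid hydroxylase, had 15.57, 15.32 and 15.27 in the probiotic samples and 15.62, 15.63 and 15.52 in the high-fat samples. Probiotic sample 1 lay among the high-fat samples while the other two were lower, and the difference was -0.20 (SE 0.12). Cyp2c6v1, expressed in both sexes, had 15.48, 15.41 and 15.36 in the probiotic samples and 15.57, 15.46 and 15.43 in the high-fat samples, and a difference of -0.068 (SE 0.11). Cyp2c23, an arachidonic acid epoxygenase, had 15.04, 14.65 and 15.11 in the probiotic samples and 14.96, 14.95 and 14.88 in the high-fat samples, and a difference of 0.0023 (SE 0.14). Both overlapped between the groups.

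Cyp2a enzymes hydroxylate testosterone, Cyp2a1 being higher in female and Cyp2a2 in male adult rats. Cyp2a2 had levels of 10.31, 14.75 and 14.59 in the probiotic samples, against 13.74, 13.23 and 14.15 in the high-fat samples. Probiotic sample 1 was the lowest of the 6, and probiotic samples 2 and 3 were above every high-fat sample. The level in probiotic sample 1 differed by -3.84 from the median of the other 5, and 5 of all 18625 probe sets, this one included, had that sample as low or lower against the others. The difference between groups was -0.49 (SE 0.98), with an adjusted limma p of 0.925. Without probiotic sample 1 it was 0.95 (SE 0.25, limma adjusted p = 0.292).

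Cyp2a1 had 13.17, 12.38 and 12.53 in the probiotic samples, against 13.18, 13.24 and 12.62 in the high-fat samples. Probiotic sample 1, low in Cyp2a2, was the highest probiotic sample here. The difference was -0.32 (SE 0.24), and -0.56 without that sample (limma adjusted p = 0.479), against -0.17 without probiotic sample 2, the lowest. A probe set annotated to 2 symbols of the subfamily, and so not counted among the 34, had 14.08, 14.59 and 14.78 in the probiotic samples and 14.24, 14.31 and 14.37 in the high-fat samples, and here too probiotic sample 1 was the lowest. Cyp2a3, known from lung and nasal tissue, was under the filter.

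Cyp2b genes include the main phenobarbital-inducible P450s, which the constitutive androstane receptor, CAR, controls. In this subfamily 1 gene with a probe set of its own was tested, Cyp2b3, which was not used as a measure of CAR activity. Its levels were 15.10, 14.48 and 14.78 in the probiotic samples and 15.04, 14.83 and 14.79 in the high-fat samples. The groups overlapped, with a difference of -0.099 (SE 0.17). A probe set annotated to 2 Cyp2b symbols, and so not among the 34, had 12.91, 12.36 and 11.85 in the probiotic samples and 11.74, 12.70 and 11.24 in the high-fat samples. Its groups overlapped too, with a difference of 0.48 (SE 0.37). Cyp2b12 and Cyp2b21 were under the filter.

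In family 1, which the aryl hydrocarbon receptor induces, the constitutive and the inducible Cyp1a gene stood far apart in signal. Cyp1a2, the constitutive hepatic form that oxidises caffeine and aromatic amines, had levels of 14.02, 13.84 and 13.80 in the probiotic samples, against 13.92, 13.94 and 13.39 in the high-fat samples. The groups overlapped. Its difference was 0.14 (SE 0.17), and without high-fat sample 3, the lowest, it was -0.038. Cyp1a1, which is nearly silent in liver until an inducer is present, was the dimmest of the 34 probe sets, at 4.60, 5.04 and 4.69 in the probiotic samples and 4.39, 4.73 and 4.58 in the high-fat samples. Its linear signals as deposited were 5 to 15.7, below the pseudocount of 16, and it was not tested. Cyp1b1, mostly extrahepatic, had 7.11, 6.44 and 7.21 in the probiotic samples and 7.69, 7.09 and 6.81 in the high-fat samples, which overlapped, and a difference of -0.28 (SE 0.39).

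The other subfamilies each had 1 gene tested. Cyp2e1 had 15.94, 16.04 and 15.98 in the probiotic samples and 15.96, 16.04 and 15.94 in the high-fat samples. The groups overlapped, with a difference of 0.0054 (SE 0.10) and a 95% interval from 0.858-fold to 1.17-fold. Cyp2f4, which activates naphthalene, had 10.97, 10.46 and 10.09 in the probiotic samples and 10.58, 10.13 and 10.09 in the high-fat samples. Its difference was 0.24 (SE 0.26), and 0.0072 without probiotic sample 1, the highest. Cyp2u1, a fatty acid hydroxylase, had 9.37, 8.85 and 8.54 in the probiotic samples and 8.95, 8.70 and 8.19 in the high-fat samples, which overlapped. Its difference was 0.31 (SE 0.30), and it was 0.083 if probiotic sample 1, the highest, was left out and 0.095 if high-fat sample 3, the lowest, was. Cyp2t1 had 10.35, 9.72 and 10.05 in the probiotic samples and 10.07, 9.73 and 10.28 in the high-fat samples, and a difference of 0.014 (SE 0.24). Cyp2s1, mostly extrahepatic, had 7.34, 6.32 and 6.81 in the probiotic samples and 6.97, 6.64 and 6.52 in the high-fat samples, and a difference of 0.11 (SE 0.41). Both overlapped between the groups. Cyp2g1, an enzyme of the olfactory mucosa, was under the filter, as were 4 members named above, Cyp2b21, Cyp2a3, Cyp2b12 and Cyp1a1.

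The highest and lowest values of the members were unevenly spread over the 6 samples. Of the 27 probe sets with a single highest sample, 13 (48.1%) had it in probiotic sample 1, where 14.5% of all probe sets did, and 0 had it in high-fat sample 3 (11.5% of all). Lowest values were held by probiotic sample 2 in 10 of 28 probe sets (35.7%, against 22.3% of all) and by high-fat sample 3 in 7 (25%, against 11.2% of all). Averaged over the 27 genes, the deviation from each gene's mean was 0.076, -0.067 and 0.030 in probiotic samples 1, 2 and 3, and 0.040, -0.0078 and -0.071 in high-fat samples 1, 2 and 3. The Actb gaps of probiotic samples 1, 2 and 3 were 2.11, 3.01 and 2.38. Those of high-fat samples 1, 2 and 3 were 1.96, 1.59 and 1.96. The part of RNA integrity in these sample levels was not tested.

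**Figure D4:**
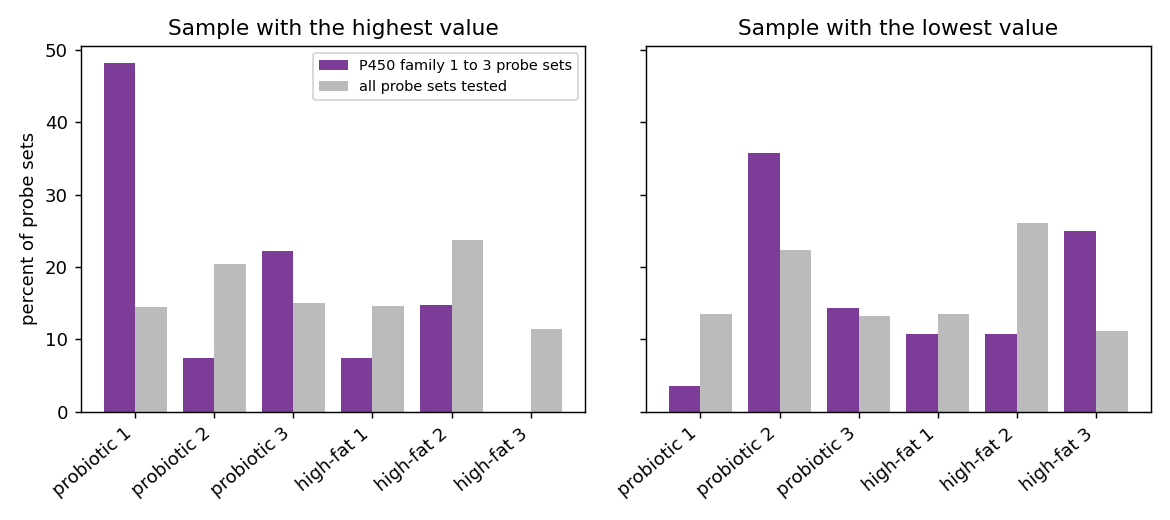
Percent of probe sets whose highest (left panel) or lowest (right panel) value was in each sample, for the P450 probe sets (purple) and for all probe sets tested (grey), ties left out. Probiotic sample 1 held the highest value in 48.1% of the P450 probe sets against 14.5% of all, and probiotic sample 2 the lowest in 35.7% against 22.3%.

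P450s depend on electron donors, on heme and on the receptors that drive their transcription, and none of the listed genes of these kinds passed the adjusted test. For the counts at an unadjusted limma p under 0.05 below, the share over all probe sets tested was 2.99% higher and 3.86% lower. Among 7 tested electron partners, 4 had higher and 3 lower values (median 0.12), and 1 had an unadjusted limma p under 0.05. That was Pgrmc2, a membrane protein that binds heme, at 12.28, 12.87 and 12.53 in the probiotic samples and 12.14, 11.63 and 11.94 in the high-fat samples. The groups did not overlap, with a difference of 0.66 (SE 0.20) and an adjusted limma p of 0.726, while its 2 other probe sets had -0.12 and 0.51. It was 0.17 when the Actb gap entered the model and 0.37 without both replicate 2 arrays. Por, the reductase that supplies all these enzymes, had levels of 12.18, 12.86 and 12.74 in the probiotic samples, against 10.65, 13.64 and 13.53 in the high-fat samples. High-fat sample 1 was the lowest and the other two were above every probiotic sample. The difference was -0.017 (SE 0.67), and -1.003 without that sample (limma adjusted p = 0.307), and a second probe set had -0.83 over all samples.

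In the heme supply, 6 of 8 tested genes had higher values, with a median difference of 0.30. At an unadjusted limma p under 0.05 there was 1 higher and 1 lower, against 2.99% and 3.86% of all probe sets. Alas1, the rate-limiting enzyme of hepatic heme synthesis, had levels of 10.59, 12.80 and 12.95 in the probiotic samples, against 10.46, 10.74 and 11.09 in the high-fat samples. Probiotic sample 1 lay within the high-fat range and the other two above it. The difference was 1.35 (SE 0.54), with an adjusted limma p of 0.726. Without probiotic sample 1 it was 2.11 and passed (limma adjusted p = 0.0357), and when the Actb gap entered the model it was 0.25. Hmox1, which breaks heme down, had 9.28, 10.49 and 9.80 in the probiotic samples and 10.42, 11.64 and 11.01 in the high-fat samples, which overlapped, and a difference of -1.17 (SE 0.37).

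**Figure D5:**
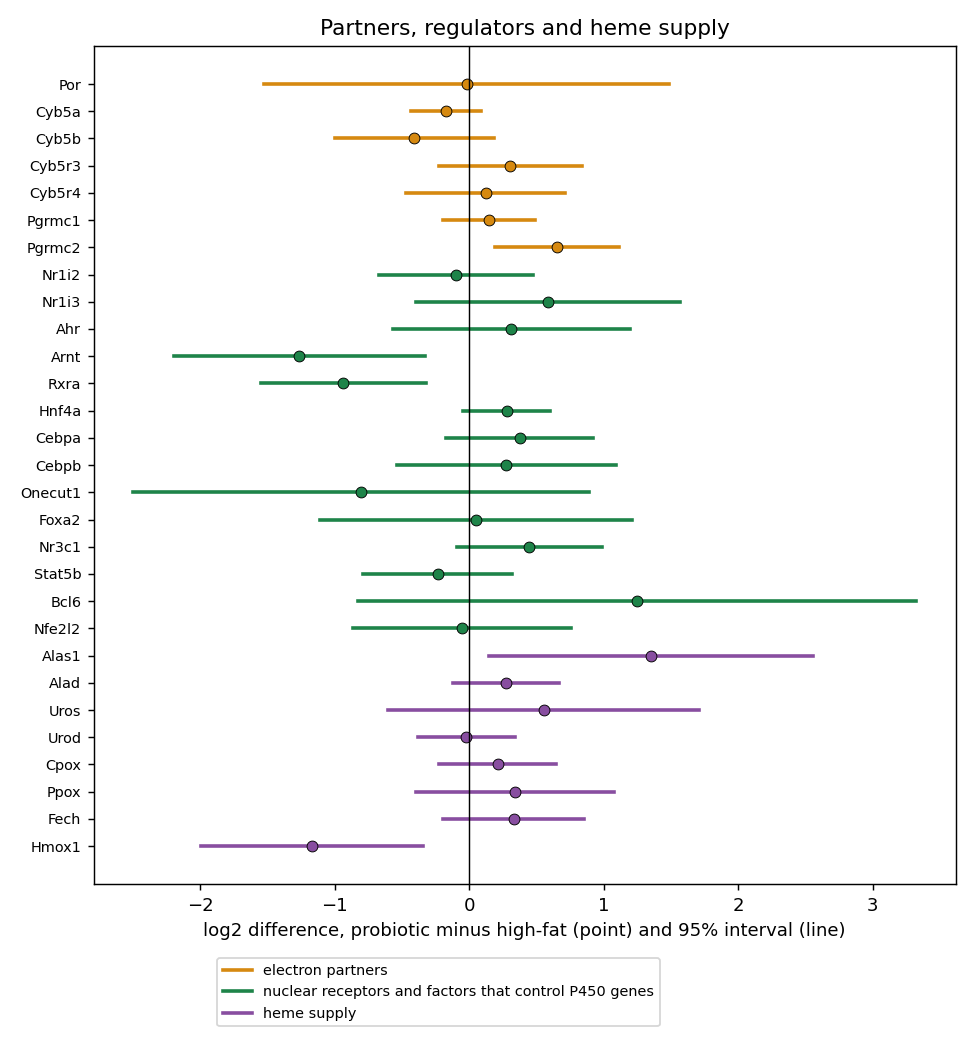
Log2 difference, probiotic minus high-fat (points), with its 95% interval (lines) for tested genes of electron transfer (orange), transcriptional control (green) and heme supply (purple). The intervals of Pgrmc2 and Alas1 lie above 0 and those of Arnt, Rxra and Hmox1 below it, before any adjustment for the number of probe sets.

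Among 14 tested nuclear receptors and factors that control P450 genes, 8 had higher and 6 lower values (median 0.16). At an unadjusted limma p under 0.05 there were 2, both lower, where 3.86% of all probe sets were lower. Rxra, the partner of CAR and PXR on DNA, had levels of 8.64, 7.80 and 7.97 in the probiotic samples, against 9.06, 9.17 and 8.98 in the high-fat samples. The groups did not overlap, with a difference of -0.94 (SE 0.27) and an adjusted limma p of 0.726. Arnt, the partner of the aryl hydrocarbon receptor, had 7.61, 6.26 and 6.63 in the probiotic samples, against 7.70, 8.57 and 8.01 in the high-fat samples, which also did not overlap, and a difference of -1.26 (SE 0.42). When the Actb gap entered the model the differences were -0.44 for Rxra and -0.30 for Arnt, and Arnt had -0.77 without both replicate 2 arrays.

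The genes of PXR, CAR and the aryl hydrocarbon receptor overlapped between the groups. Nr1i2, which encodes PXR, had 10.72, 10.14 and 10.10 in the probiotic samples and 10.23, 10.83 and 10.20 in the high-fat samples, and a difference of -0.10 (SE 0.25). Ahr, the aryl hydrocarbon receptor, had 7.53, 8.39 and 7.39 in the probiotic samples and 7.91, 7.62 and 6.84 in the high-fat samples, and a difference of 0.31 (SE 0.39). Nr1i3, which encodes CAR, had 10.51, 9.49 and 9.95 in the probiotic samples and 10.46, 8.90 and 8.85 in the high-fat samples. High-fat sample 1 was far above the other two of its group. The difference was 0.58 (SE 0.44), with 1.12 without that sample (limma adjusted p = 0.455), 0.34 without high-fat sample 2, 0.31 without high-fat sample 3 and 0.32 without probiotic sample 1. Hnf4a, a factor that maintains many hepatic P450 genes, had 13.92, 13.87 and 14.22 in the probiotic samples and 13.67, 13.68 and 13.83 in the high-fat samples. These did not overlap. Its difference was 0.28 (SE 0.14), and 0.17 without probiotic sample 3, while its 2 other probe sets had -0.61 and -0.39.

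Genes outside the P450s that respond to the same receptors had values in both directions. Of 11 tested CAR and PXR responsive genes, 5 had higher and 6 lower values (median -0.017), and 3 had an unadjusted limma p under 0.05, all higher. These were Alas1, the uptake transporter Slco1a4 and the aldehyde dehydrogenase Aldh1a1. Over all probe sets tested, 2.99% were higher and 3.86% lower at that threshold. Alas1, Aldh1a1, Nqo1, Por, Ephx1 and Nfe2l2 are each counted in another list as well, so the counts and medians of the lists are not separate. Slco1a4 had 14.26, 13.95 and 14.79 in the probiotic samples and 13.52, 13.93 and 13.70 in the high-fat samples, which did not overlap. The difference was 0.62 (SE 0.21), and 0.39 without probiotic sample 3, its highest, with -0.0095 in a second probe set. Aldh1a1 had 13.16, 13.90 and 13.97 in the probiotic samples and 12.72, 13.31 and 13.27 in the high-fat samples, which overlapped, and a difference of 0.58 (SE 0.24), or 0.32 when the Actb gap entered the model. Of 3 tested genes responsive to the aryl hydrocarbon receptor, 1 had higher and 2 lower values (median -0.054), and the quinone reductase Nqo1 had an unadjusted limma p under 0.05. It had 11.18, 10.52 and 10.99 in the probiotic samples, against 12.96, 12.11 and 11.92 in the high-fat samples. The groups did not overlap, with a difference of -1.43 (SE 0.29) and an adjusted limma p of 0.688. Among 15 other phase 1 enzymes, 7 had higher and 8 lower values (median -0.14). Those with an unadjusted limma p under 0.05 were Aldh1a1, Nqo1 and the flavin monooxygenase Fmo5. Fmo5 had 13.28, 13.38 and 13.14 in the probiotic samples and 13.55, 13.76 and 14.22 in the high-fat samples, which did not overlap, and a difference of -0.58 (SE 0.18), or -0.38 without high-fat sample 3, the highest.

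Many P450s are made near the central vein of the liver lobule, and markers of the zones gave no common direction. Of 6 tested pericentral markers 3 had higher values (median -0.039), and of 8 periportal markers 4 did (median -0.0095). The median differences were -0.0050 for hepatocyte, -0.40 for Kupffer cell, 0.041 for endothelial, -0.050 for stellate, 0.085 for cholangiocyte, -0.18 for intestinal and 0.72 for blood markers.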

How the data were processed

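Liver RNA of 6 rat samples was hybridised to 1-colour Affymetrix arrays from 8 ug of total RNA, per the labels' protocols. The deposited series table gives 1 linear intensity per probe set and array, and each array has the same trimmed mean, near 500, leaving out the top and bottom 2%. The software that summarised the probes is not given in the sources used here. Arrays were grouped by title, put on the scale log2(intensity + 16) and then quantile normalized in limma 3.58.1 (R 4.3.3), after which 57 control probe sets were dropped. Probe sets with a mean at or above the 40th percentile (18625) were fitted with lmFit and eBayes with a trend, and p-values were Benjamini-Hochberg adjusted over all of them. The number of arrays limits the precision.

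Probe sets were named from the platform annotation: 20826 had 1 symbol, 436 several and 9780 none, and all 34 members matched RefSeq, which also gave 29 of the 32 promoters. Per-sample values are given for members with an unadjusted p under 0.05, the 8 brightest, the brightest of each subfamily, and a set of inducible or sex-dependent isoforms, and for genes of the 6 pathway lists with an unadjusted p under 0.05 and regulators. The members and the lists were chosen with earlier results of these data known. A gene was represented by its brightest probe set. In 20 simulated data sets, 200 of 18625 probe sets were changed. The same fit recovered 0.5% of changes of 1.5-fold, 7.6% of 2-fold, 57.8% of 4-fold and 80.2% of 8-fold. The changed probe sets were picked at random over all those tested. The rates are therefore not those of the P450 probe sets, many of which are brighter. There were 5.05 false calls per data set. That number depends on the changes put in, so it cannot be set against the 4 probe sets called in the real data. Replicate numbers were checked as pairs: deviations from the group means had correlations of 0.144, 0.027 and 0.077 in same-numbered samples. In differently numbered samples the correlations were -0.141 to 0.067. These values cannot decide whether samples were paired, and the main fit did not treat them as pairs. Alternatives were other normalizations, filters, pseudocounts, variance models, array weights, a replicate block, a model with the Actb gap, and arrays left out. Since the Actb gap was larger in every probiotic sample than in every high-fat sample, the model with it cannot fully separate it from the group.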

Additional observations from a re-analysis of the deposited data

How the results depend on the processing

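No P450 probe set had a limma adjusted p under 0.05 under any of 17 alternatives, and Cyp3a9 had an unadjusted p under 0.05 in all 17. The count at an unadjusted limma p under 0.05 was 1 of 29 as reported, against 6.85% of all probe sets. It was 2 (6.9%) with the replicate block, against 8.2% of all. When the Actb gap entered the model it was 3 (10.3%), against 2.38% of all. When each sample was left out in turn it was 1 to 4, the 4 being Cyp2a1, Cyp2a2, Cyp2c22 and Cyp3a9 without probiotic sample 1. For the fits with a sample left out, the shares over all probe sets are not given here. The median over the genes was -0.0974 without normalization, 0.214 with the Actb gap, 0.082 without both replicate 2 arrays, and -0.0157 to 0.102 when each sample was left out. The Cyp2c median was -0.186 with medians aligned and -0.234 without normalization. With the Actb gap the medians were -1.39 for Cyp2a, 0.367 for Cyp2d and 0.28 for Cyp3a, and Cyp2a1 turned to 0.203. The Cyp2d median was 0.0737 without normalization. When each sample was left out, the Cyp2a median was -0.714 to 0.199 and the Cyp2d median 0.0747 to 0.301. The cause of these shifts was not tested. Of 643 values of single genes under alternatives, 1 had an adjusted limma p under 0.05, Alas1 without probiotic sample 1 (2.11). Of 24 named P450 genes tested, 14 had a difference smaller than its SE, and 12 of those turned sign in at least 1 setting. Low signals limit Cyp1a1 and the other 4 untested members. The tested members Cyp2j10, Cyp1b1 and Cyp2s1 were dim too, at percentiles 53.3, 52.9 and 48.5 of signal. The 3 arrays a group limit all members.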
